A study of Saccharomyces cerevisiae with 6 samples.

Results

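The proteasome genes of budding yeast were followed in cells lacking NPL3. They were 35 genes of the 5449 tested, taken as the probe sets whose platform gene symbol was on a fixed list: 14 subunits of the 20S core, 10 of the 19S base, 8 of the 19S lid, the assembly factor UMP1, the tether ECM29 and the activator RPN4. Each had 1 probe set. RNA from 2 strains was hybridised to Affymetrix arrays, 3 arrays per strain, each labelled a biological replicate. The deletion strain, WNPL3B1-2B, is haploid MATa with npl3::KanMX. Its wild type counterpart, W303-1A bar1∆, is also haploid MATa and has an intact NPL3. Both carry bar1ΔHphMX and, per the labels, the same mutant alleles of ADE2, CAN1, TRP1, HIS3, LEU2 and URA3. Cultures were in mid-log growth on rich glucose medium. The labels give the deletion under a single strain name, and the p-values measure only the spread between these arrays.

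The proteasome degrades proteins that carry ubiquitin chains. Its core is a barrel of alpha and beta rings with the cutting sites inside, and its regulatory particle has a base, whose ATPase ring unfolds substrates, and a lid, which removes ubiquitin. In yeast the transcription factor Rpn4 binds a shared element upstream of most proteasome genes and drives them together. Rpn4 is itself destroyed by the proteasome, which closes a feedback loop. NPL3 encodes an RNA-binding protein of mRNA processing and nuclear export.

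The values were log2 expression per probe set, normalized between arrays by the authors, so these data do not show a shift common to nearly all transcripts. NPL3 read 3.80, 4.04 and 4.04 on the deletion arrays, against 10.75, 11.37 and 11.33 on the wild type arrays. The MATa label was looked at with 6 marker genes of MATa cells, whose strain means were 6.09 to 11.18. The pheromone receptor gene STE2 read 11.15 to 11.21 in the deletion and 11.12 to 11.14 in wild type. The other 5 fell, where 28.9% of all genes fell, with differences from -0.34 (STE6) to -0.88 (MFA1). Of 4 MATalpha markers, MF(ALPHA)1, MF(ALPHA)2 and STE3 read 2.98 to 4.53 in the deletion and 3.69 to 4.505 in wild type, above the background level of 2.13, while SAG1 read 7.81 to 7.93 in the deletion and 7.20 to 7.58 in wild type. Spiked labelling controls averaged 4.80 ± 0.20 in the deletion and 4.10 ± 0.12 in wild type, and hybridization controls 8.67 ± 0.60 in the deletion and 9.31 ± 0.08 in wild type (SD, n = 3 arrays each). Their part in the results below was not tested. None of the 35 genes lies on chromosome I.

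Transcripts of the proteasome changed little. Of the 35 genes, 10 fell and 2 rose in the deletion at a limma adjusted p of 0.05, and 23 did not pass. This was 34.3% of the members, where the test called 61.8% of all genes tested. The share that fell, 28.6%, was close to the 28.9% of all genes, and the share that rose, 5.71%, was below the 32.9% of all genes. No member reached a fold change of 1.5 in either direction, a size reached by 16.9% of all genes with the call. The median size of a member's difference, whatever its sign, was 0.11 on the log2 scale, against 0.23 over all genes. The median standard error was 0.058 for the members and 0.060 for all genes. The signed median was -0.05 for the members and 0.01 for all genes. The 10 falls became 6 when all probe sets entered the adjustment and 5 at an adjusted p of 0.01. The 2 rises became 3 with arrays centred on their medians or without the dimmest genes, and 4 under a trended variance or array weights.

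**Figure D1:**
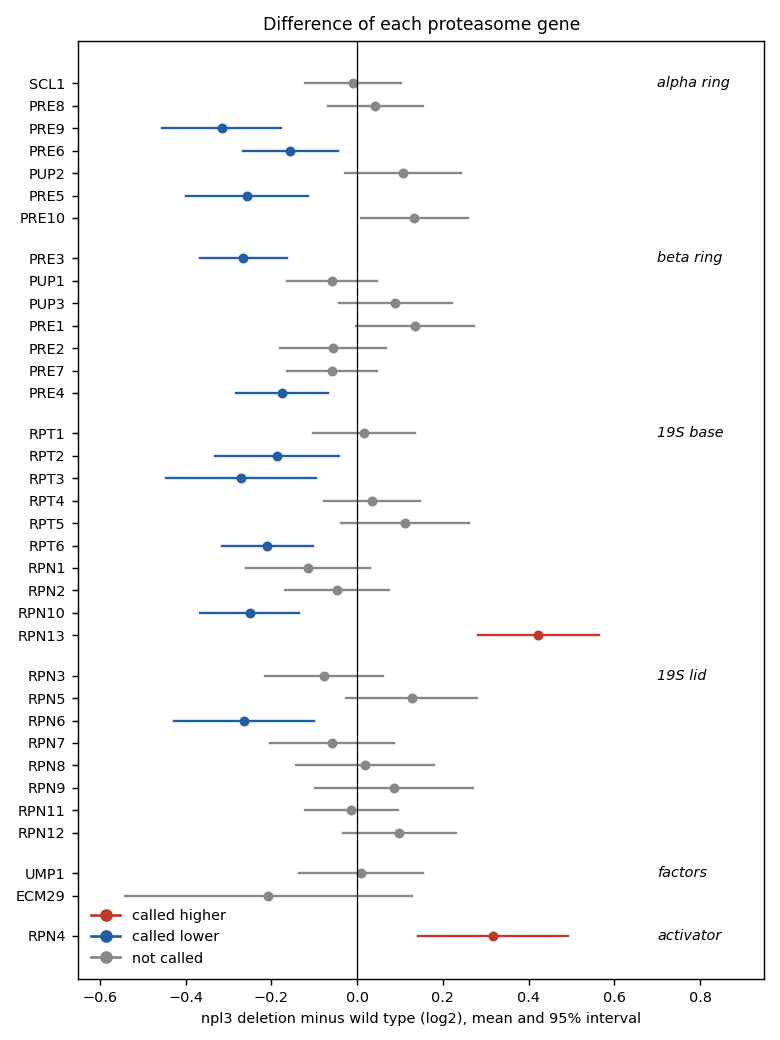
Difference between npl3 deletion and wild type for each of the 35 genes (log2, horizontal axis), with 95% intervals from the limma fit on 3 arrays per strain, grouped by subcomplex. The points lie between -0.32 (PRE9) and 0.42 (RPN13), and 10 of the 12 genes past the test are on the lower side.

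Of the 23 genes that did not pass, ECM29 had the widest 95% interval, -0.54 to 0.13. The intervals of the other 22 lay within -0.26 (RPN1) and 0.28 (RPN5). The called falls ran from -0.16 (PRE6) to -0.32 (PRE9), so some of these intervals include changes of that size. They do not show the 22 genes to be unchanged. The intervals are not adjusted for the number of genes, and that of PRE10 was 0.0094 to 0.26. The groups did not overlap for 17 of the 35 members, or 48.6% of the members against 68.8% of all genes. Of these, 13 were lower in the deletion, where 32.5% of all genes were lower without overlap, and 4 were higher, where 36.2% of all genes were.

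Wild type replicate 2 stood high for these genes. On wild type replicate 2, 31 of the 35 members had their highest value among the 3 wild type arrays, against 31.7% of all genes. All 8 lid genes and all 6 base ATPase genes were among the 31. Without that array, 7 members rose and 8 fell, where 30.0% of all genes rose and 26.6% fell. The 7 were RPN13 and RPN4, which rose with all arrays too, and PRE1, PRE10, RPT5, RPN9 and RPN12. The differences of the last 5 were then 0.15 to 0.19 on the log2 scale. With each of the other arrays left out in turn, 2 members rose and 7 to 10 fell.

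**Figure D2:**
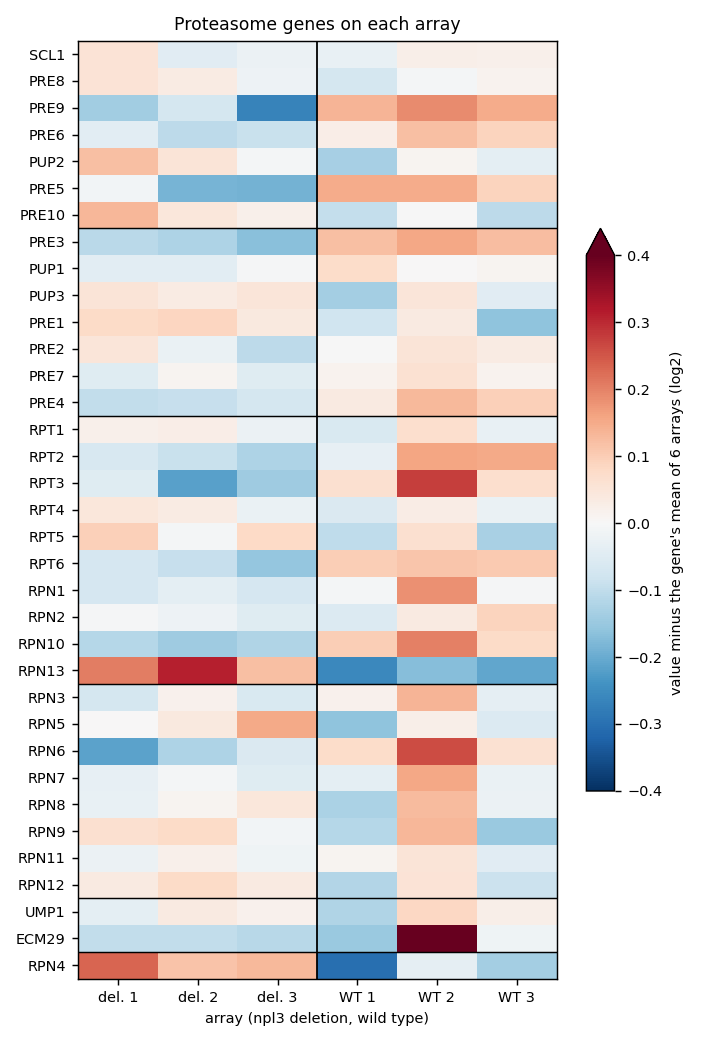
Value of each of the 35 genes on each array minus the gene's mean of the 6 arrays (log2, colour), with the 3 npl3 deletion arrays left of the 3 wild type arrays and lines between subcomplexes. Wild type replicate 2 is the warmest wild type column for 31 genes, and the darkest cell is ECM29 on that array, beyond the end of the colour scale.

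Of the 14 core genes, 5 fell, none rose and 9 did not pass. The 35.7% that fell stood beside 28.9% of all genes, of which 32.9% rose. The median over the core was -0.06 on the log2 scale. In the alpha ring, which gates the entry to the barrel, 3 of 7 genes, or 42.9%, fell. PRE9, whose product is the alpha subunit that yeast can do without, had the largest fall of all 35 genes. It read 9.87, 9.94 and 9.74 in the deletion, against 10.15, 10.20 and 10.16 in wild type. All deletion arrays were below all wild type arrays, with a difference of -0.32 (SE 0.060, limma adjusted p = 0.0026).

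PRE5, another alpha subunit, read 9.71, 9.54 and 9.53 in the deletion, against 9.87, 9.87 and 9.81 in wild type. The groups were separate, and deletion replicate 1 was nearest to wild type (difference -0.26, SE 0.061, limma adjusted p = 0.0074). PRE6, the third alpha gene to fall, was at 10.73, 10.66 and 10.68 in the deletion, against 10.79, 10.89 and 10.86 in wild type. Its difference of -0.16 (SE 0.048, limma adjusted p = 0.022) lost the call without wild type replicate 2 or 3 or without deletion replicate 2 or 3, with adjusted p of 0.065 to 0.072. The other 4 alpha genes, SCL1, PRE8, PUP2 and PRE10, differed by -0.01 to 0.13. PRE10, at the upper end, was higher on every deletion array, at 10.44 to 10.55, than on any wild type array, at 10.31 to 10.42, with adjusted p = 0.060 in limma.

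In the beta ring, which holds the cutting sites, 2 of 7 genes fell and none rose. The share that fell, 28.6%, was close to the 28.9% of all genes, of which 32.9% rose. PRE3 encodes the subunit with the caspase-like site. It stood at 9.63, 9.62 and 9.57 in the deletion, against 9.86, 9.90 and 9.86 in wild type, with little spread in either group. The difference was -0.27 (SE 0.044, limma adjusted p = 0.0012). The genes of the other cutting subunits did not pass the test: PUP1, of the trypsin-like site, differed by -0.06, and PRE2, of the chymotrypsin-like site, also by -0.06. PRE4, a beta subunit without a cutting site of its own, read 10.21, 10.22 and 10.24 in the deletion, against 10.35, 10.44 and 10.41 in wild type. This was a small but separate difference of -0.18 (SE 0.046, limma adjusted p = 0.012). PRE7, PUP3 and PRE1 differed by -0.06, 0.09 and 0.13 and did not pass.

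The base ran from -0.27 (RPT3) to 0.42 (RPN13), a wider range than in the core or the lid. RPN13 alone made it wider, since the next highest base gene was RPT5 at 0.11. Of the 10 base genes, 4 fell, 1 rose and 5 did not pass, with a median of -0.08 on the log2 scale. The 40% of base genes that fell and 10% that rose stood beside 28.9% and 32.9% of all genes. Without deletion replicate 2 the falls were 2. Among the 6 ATPase genes, whose products form the unfolding ring, RPT2, RPT3 and RPT6 fell while RPT1, RPT4 and RPT5 did not pass, at 0.02, 0.04 and 0.11. RPT6 read 10.33, 10.31 and 10.24 in the deletion, against 10.50, 10.51 and 10.51 in wild type. The wild type arrays were close together, and the difference was -0.21 (SE 0.045, limma adjusted p = 0.0049).

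RPT3 read 9.90, 9.73 and 9.80 in the deletion, against 10.01, 10.22 and 10.01 in wild type, where replicate 2 stood highest. Its difference of -0.27 (SE 0.075, limma adjusted p = 0.015) lost the call without deletion replicate 2 (adjusted p = 0.055). RPT2 was at 9.60, 9.57 and 9.54 in the deletion, against 9.63, 9.82 and 9.82 in wild type. Wild type replicate 1 was close to the deletion arrays. The difference of -0.19 (SE 0.062, limma adjusted p = 0.032) lost the call without any 1 array other than wild type replicate 1, with adjusted p of 0.055 to 0.10.

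RPN13 and RPN10 encode ubiquitin receptors of the regulatory particle, and they moved in opposite directions. RPN13 had the largest rise of the 35 genes. It read 9.63, 9.73 and 9.54 in the deletion, against 9.16, 9.25 and 9.21 in wild type. Every deletion array was above every wild type array, with a difference of 0.42 or 1.34-fold (SE 0.060, limma adjusted p = 0.00060). RPN10 read 9.69, 9.66 and 9.68 in the deletion, against 9.90, 10.001 and 9.88 in wild type. The deletion arrays were tightly grouped below wild type (difference -0.25, SE 0.050, limma adjusted p = 0.0033). The scaffold genes RPN1 and RPN2, whose large products hold the base together, differed by -0.11 and -0.05 and did not pass.

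Of the 8 lid genes, 1 fell, none rose and 7 did not pass, so that 12.5% were called against 61.8% of all genes. The median was 0.00. Leaving out each array in turn moved it between -0.03 and 0.05, so it had no settled sign. RPN6, whose product clamps the lid to the core, was the exception, at 9.92, 10.01 and 10.08 in the deletion, against 10.21, 10.40 and 10.20 in wild type. The groups were separate, with wild type replicate 2 highest (difference -0.26, SE 0.070, limma adjusted p = 0.013). RPN11, which encodes the enzyme that cuts ubiquitin chains from substrates, differed by -0.01 with a 95% interval of -0.12 to 0.10. RPN3, RPN5, RPN7, RPN8, RPN9 and RPN12, the remaining lid genes of the fixed list, differed by -0.08 to 0.13. The median SD of a lid gene was 0.042 in the deletion and 0.101 in wild type, where all 8 had their highest value on replicate 2.

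UMP1, a chaperone that closes inside the maturing core and is degraded there, read 9.34, 9.42 and 9.40 in the deletion, against 9.26, 9.46 and 9.40 in wild type. The arrays of the strains were interleaved (difference 0.01, 95% interval -0.14 to 0.15). ECM29, which holds core and regulatory particle together, read 7.17, 7.16 and 7.15 in the deletion, against 7.12, 7.74 and 7.25 in wild type. Wild type replicate 2 stood apart, and the difference of -0.21 (SE 0.14, limma adjusted p = 0.24) was -0.02 without it.

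**Figure D3:**
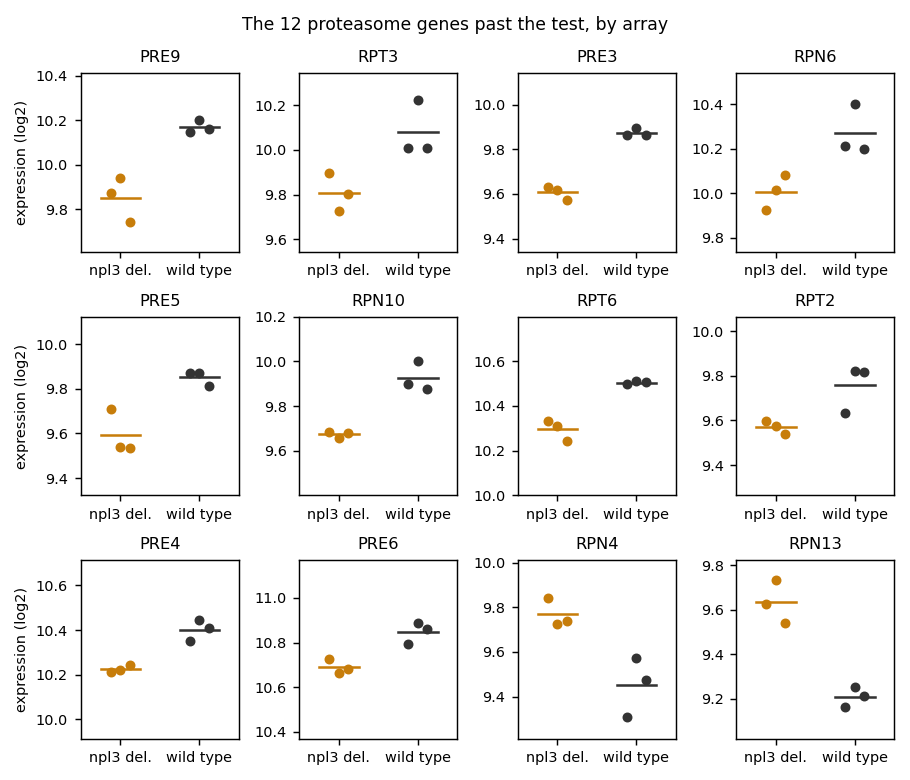
Expression (log2, vertical axes of equal height with different origins) of the 12 proteasome genes past the test, with npl3 deletion arrays left of wild type arrays, each point 1 array and each bar the mean of 3. In all 12 panels the points of the strains do not overlap, but the genes were chosen by the test on these same arrays. Of all genes, 68.8% do not overlap. RPN4 and RPN13 are the genes with the deletion on top.

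RPN4, the activator of these genes, rose. It read 9.84, 9.72 and 9.74 in the deletion, against 9.31, 9.57 and 9.47 in wild type. All deletion arrays were above all wild type arrays, with wild type replicate 2 the nearest. The difference was 0.32 or 1.25-fold (SE 0.075, 95% interval 0.14 to 0.49, limma adjusted p = 0.0073). With each array left out in turn it was 0.24 to 0.38 and kept its call. Over the 32 structural subunits, 10 fell and 1 rose beside this rise of RPN4. The 31.25% that fell was close to the 28.9% of all genes. Rpn4 protein was not measured.

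The genes that act on RPN4 or its product were looked at as a list of 6, of which 3 fell, none rose and 3 did not pass, where 28.9% of all genes fell and 32.9% rose. UBR2, the ubiquitin ligase that marks Rpn4 for destruction, read 5.85, 5.80 and 5.87 in the deletion, against 6.66, 7.39 and 7.06 in wild type. The deletion arrays were close together and all below wild type (difference -1.20 or 0.436-fold, SE 0.16, limma adjusted p = 0.00042). MUB1, the partner of Ubr2, fell by 0.30 (SE 0.054, limma adjusted p = 0.0021), at 7.69 to 7.85 in the deletion and 8.04 to 8.09 in wild type. PDR3, a drug-resistance factor that activates RPN4, fell by 0.34 (SE 0.052, limma adjusted p = 0.00085). The other activators of RPN4 did not pass: PDR1 differed by 0.08, the oxidative stress factor gene YAP1 by 0.05 and the heat shock factor gene HSF1 by -0.11. All 6 genes had their highest wild type value on replicate 2, against 31.7% of all genes. When wild type replicate 2 was left out, PDR1 rose by 0.14 (limma adjusted p = 0.047) and UBR2 differed by -1.02 (limma adjusted p = 0.00049). UBR2 and PDR3 were among the dimmest genes. With only the upper 80% of genes kept, 4 of the 6 remained and 1 fell, where 30.0% of the genes kept fell.

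Of 18 chaperones of assembly and proteins that associate with the proteasome, 5 fell, 3 rose and 10 did not pass, with a median of -0.06. The share that fell, 27.8%, was close to the 28.9% of all genes, and 16.7% rose against 32.9% of all genes. Those that fell most were DDI1, a ubiquitin shuttle (difference -0.87, SE 0.13, limma adjusted p = 0.00074), and RPN14, a chaperone of the base. RPN14 read 6.20, 6.27 and 6.15 in the deletion, against 7.21, 6.95 and 6.95 in wild type (difference -0.83, SE 0.078, limma adjusted p = 7.0e-05). NAS6, also a base chaperone, rose by 0.32 (SE 0.048, limma adjusted p = 0.00071). SPG5, a proteasome regulator of stationary phase, rose by 0.31 (SE 0.095, limma adjusted p = 0.022). Leaving out each array in turn gave 1 to 4 rises. Without wild type replicate 1, or without deletion replicate 1 or 3, NAS6 was the 1 that rose. SPG5 lost the call in these and without wild type replicate 3.

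Upstream of the proteasome, ubiquitin is activated by UBA1, passed to conjugating enzymes and joined to substrates by ligases. Of 21 genes of these steps and of ubiquitin recovery, 9 rose, 2 fell and 10 did not pass, with a median of 0.13. This was 42.9% that rose, against 32.9% of all genes, and 9.52% that fell, against 28.9%. UBA1 itself rose by 0.78 or 1.72-fold, at 10.95, 10.95 and 11.07 in the deletion, against 10.06, 10.42 and 10.16 in wild type (SE 0.093, limma adjusted p = 0.00024). UBC5, a conjugating enzyme of stress and short-lived proteins, rose by 0.74 (SE 0.070, limma adjusted p = 7.2e-05). All 6 conjugating enzyme genes on the list rose, by 0.34 to 0.74, and in none of them did the strains overlap, where 32.9% of all genes rose and 36.2% were higher without overlap. Of the 9 ligase genes on the list, 2 rose, 1 fell and 6 did not pass, so that 33.3% were called against 61.8% of all genes. UFD4, 1 of the 2 that rose (difference 0.19, limma adjusted p = 0.020), lost the call without wild type replicate 1 or 3 or deletion replicate 1. Its limma adjusted p was then 0.056 to 0.063. The 21 genes gave 8 to 10 rises and 2 to 3 falls with each array left out in turn. The list was drawn up with earlier results of these data known. UBC4 and UBC5 are close relatives, and whether their probe sets read each other's transcript was not tested. The falls were DOA4, which recovers ubiquitin before degradation (difference -0.36), and HRD1, a ligase of the endoplasmic reticulum (difference -0.35). The 4 ubiquitin precursor genes did not pass, and UBI4, the stress-induced one, differed by 0.13 (SE 0.097, limma adjusted p = 0.28). It rose by 0.24 when wild type replicate 2 was left out (limma adjusted p = 0.014), and differed by 0.04 when wild type replicate 1 was.

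Cdc48 is the ATPase that pulls ubiquitin-tagged proteins out of complexes and membranes before they reach the proteasome. Of 12 genes for it and its cofactors, 11 fell and none rose, with a median of -0.41, where 28.9% of all genes fell and their median was 0.01. The list was drawn up with earlier results of these data known, so the count describes these genes and is not a test of them as a set. Leaving out each array in turn gave 9 to 11 falls. CDC48 fell by 0.20 (SE 0.053, limma adjusted p = 0.014), at 11.10 to 11.20 in the deletion and 11.28 to 11.40 in wild type, and lost the call when deletion replicate 2 was left out (adjusted p = 0.051). Of its 11 cofactors on the list, 10 fell. UBX2, which recruits Cdc48 to the endoplasmic reticulum, read 7.18, 7.08 and 7.13 in the deletion, against 8.21, 8.23 and 8.20 in wild type (difference -1.08 or 0.473-fold, SE 0.047, limma adjusted p = 1.8e-06). NPL4, which with UFD1 encodes the adaptor for ubiquitin chains, read 7.21, 7.22 and 7.15 in the deletion, against 8.17, 8.37 and 8.25 in wild type (difference -1.06, SE 0.061, limma adjusted p = 6.1e-06). UFD1 fell by 0.22, a call held without wild type replicate 1 or deletion replicate 1 and lost without any other array, with limma adjusted p of 0.054 to 0.11. As with the members, 11 of these 12 genes had their highest wild type value on replicate 2, and without that array 10 fell.

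**Figure D4:**
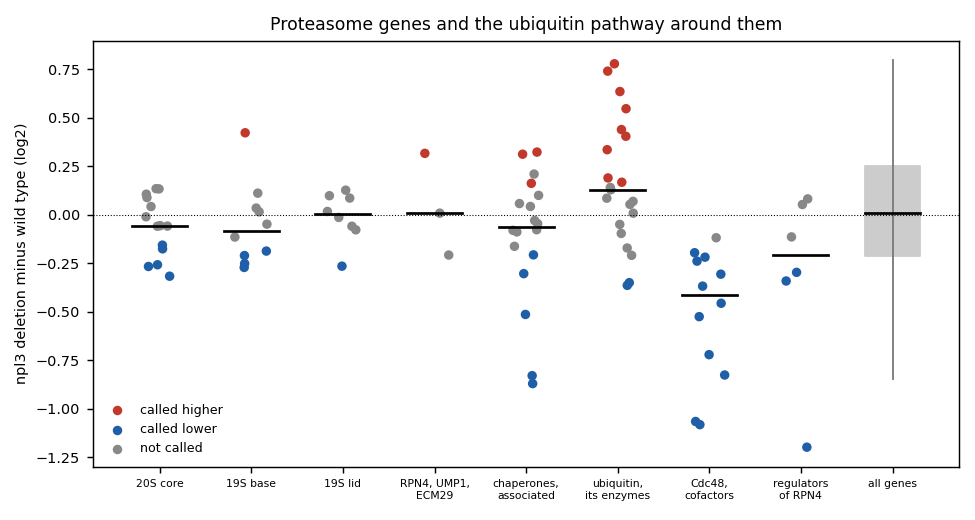
Difference between npl3 deletion and wild type (log2, vertical axis) for each gene of the proteasome subcomplexes and of 4 lists around them, with a bar at the median, beside all 5449 genes as a box of quartiles with whiskers at the 5th and 95th percentiles. The members lie between -0.32 and 0.42, inside the whiskers of -0.84 and 0.80, while UBR2, UBX2, NPL4 and DDI1 lie below them.

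The members were spread over 13 chromosomes. In the gene order of the yeast reference annotation, 2 pairs of members stood with 1 gene between them. PRE4 fell while its near neighbour RPN12 differed by 0.10, and RPT4 and RPN8 differed by 0.04 and 0.02.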

How the data were processed

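The authors deposited a table of log2 values for 6 arrays, with a single value for each probe set on each array. Per the submitters' processing notes they used RMA and limma, with versions and settings not given in the sources used here. RMA corrects background, equalises the arrays and summarises probes. The values were not normalized again. Of 10928 probe sets, 7244 had 1 gene symbol, 1 several and 3683 none. Of the 7244, 5498 matched the reference table (assembly R64) by gene number. The brightest probe set stood for a gene, which left 5449 genes. The background, 2.13, was the 95th percentile over the means of the 1746 probe sets without a match.

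A linear model with the strain as its only term (deletion minus wild type, two-sided) was fitted by limma 3.58.1 (lmFit, eBayes) under R 4.3.3. P-values were adjusted after Benjamini-Hochberg across all 5449 genes, and 0.05 was the threshold. Adjusted p-values are from this fit, except where an array left out or another setting is named beside them. With 3 arrays a group, their number limits the precision. In simulated data with 5449 genes, 100 genes were changed by 0.3 on the log2 scale and 100 by 1. The fit called 57.0% of the first and 99.0% of the second. Far fewer genes changed there than the 61.8% called in the real data, which makes the adjustment stricter, and spreads were shuffled between genes. These shares therefore do not give the chance of a call for the members. Members, lists and the rule for named genes (all members, the regulators of RPN4, UBI4, UBA1, CDC48 and the largest called changes of each other list) were chosen with earlier results of these data known. A search for Rpn4 elements in promoters was not run, since no sequence was used here. Python 3.11.15, NumPy 2.4.6, pandas 2.3.3 and matplotlib 3.10.9 made tables and figures. The alternatives are named in the closing section.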

Additional observations from a re-analysis of the deposited data

How the results depend on the processing

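Results were recomputed with the replicate number as a block, without each array, with arrays centred on their medians or quantile normalized, without genes below background or the dimmest genes, with a robust trended variance or array weights, with probe sets averaged, with all of them or without s and x types, without chromosome I, and at an adjusted p of 0.01 or a fold of 1.5. No call of a member reversed. The 10 falls and 2 rises became 6 and 2 when all probe sets entered the adjustment, 5 and 2 at an adjusted p of 0.01, and 0 and 0 at a fold of 1.5, which RPN4 (0.32) also missed. The rises became 3 with arrays centred on their medians and 3 without the dimmest genes, where PRE10 gained the call. They became 4 with the trended variance and 4 with array weights, where PRE10 and PRE1 did. With each array left out, falls were 7 to 10, rises 2 to 7, core falls 4 to 5, base falls 2 to 4 and lid falls 1. Core, base and lid falls were 3, 2 and 1 with all probe sets, 3, 2 and 0 at an adjusted p of 0.01, and 0, 0 and 0 at a fold of 1.5. Sign changes occurred only in members that did not pass. With each array left out, SCL1 ran from -0.039 to 0.0096, RPT1 from -0.011 to 0.053, RPN7 from -0.093 to 0.0036, RPN8 from -0.042 to 0.085, RPN11 from -0.039 to 0.0098 and UMP1 from -0.049 to 0.053. Under quantile normalization RPT1 was -0.024 and RPN8 -0.016, and under array weights RPN11 was 0.0083 and UMP1 -0.00014. The cause of these shifts was not tested. Replicate numbers did not pair the arrays (correlations of deviations -0.19 to -0.07 for equal numbers). With the replicate block 8 members fell and 2 rose, 4 core, 3 base and 1 lid gene fell, and RPN4 kept its difference of 0.32 (limma adjusted p = 0.024). PRE6 and RPT2 lost their calls.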

Other observations

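The array also carries 24 probe sets whose annotated symbols are those of the members in lower case and that matched no gene of the yeast reference table. The annotation does not name the organism of these probe sets. Their values ran from 0.99 to 3.16 on the log2 scale, with a median of 1.64 over their means, and 2 of the 24 had a mean above the background level of 2.13. The highest was rpt2, at 2.96 in the deletion and 2.79 in wild type. The lowest mean of any of the 35 proteasome genes in either strain was 7.16, that of ECM29 in the deletion.

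The base chaperones did not move together. RPN14 fell by 0.83 and NAS6 rose by 0.32, HSM3 rose by 0.16 with limma adjusted p = 0.049, a call held without wild type replicate 2 and lost without any other array, and NAS2 differed by -0.09 and did not pass. PBA1 and ADD66, assembly chaperones on the same list, differed by 0.04 and 0.06 and did not pass. Of the pair POC4 and IRC25, chaperones of the alpha ring, POC4 fell by 0.21 (limma adjusted p = 0.011), while IRC25 differed by 0.21 and did not pass (adjusted p = 0.061). When wild type replicate 3 was left out IRC25 rose by 0.27 (limma adjusted p = 0.029), and without wild type replicate 2 it differed by 0.12. Among the shuttles that carry ubiquitin-tagged proteins to the proteasome, RAD23 fell by 0.51 (limma adjusted p = 0.00014), at 9.62 to 9.75 in the deletion and 10.15 to 10.27 in wild type, and DDI1 fell by 0.87, while DSK2 differed by -0.16 and did not pass. When wild type replicate 1 was left out DSK2 fell by 0.29 (limma adjusted p = 0.0049), and without wild type replicate 2 it differed by -0.06. BLM10, an alternative cap of the core, fell by 0.30. These genes of the list, other than RPN14, NAS6 and DDI1, were chosen after their values were seen.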
